A study of Mus musculus with 12 samples.

Results

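Mural cells are the cells wrapped around the outside of blood vessels, and 10 genes that mark them were followed here through endothelial cells sorted from mouse brain cortex. The 10 genes, out of 21638 in the deposited table, are 4 genes of smooth muscle cells (Myocd, Acta2, Tagln and Myh11) and 6 of pericytes (Pdgfrb, Rgs5, Kcnj8, Abcc9, Cspg4 and Notch3). They were listed as mural genes and selected on their known difference in level between Hdac2 ECKO and wild type, so that difference is given for them as a description without a test. All 10 had a mean of 10 counts or more across the 12 libraries and so were tested, as were 12577 genes in all. Myocd and Cspg4, with WT counts of 0, 0 and 0 and of 5, 0 and 4, lay below that mean in WT and reached it through the other groups.

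Smooth muscle cells ring arteries and arterioles and contract, and pericytes sit on capillaries under the same basement membrane as the endothelium. Endothelial cells recruit both through secreted PDGF-B, which binds the receptor encoded by Pdgfrb, and through Notch ligands that signal to Notch3. In smooth muscle, myocardin, the product of Myocd, binds serum response factor and switches on the contractile genes. Brain capillaries are densely covered by pericytes, which help to keep the blood-brain barrier closed.

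The endothelial cells were sorted from adult mice for the endothelial surface protein CD31 and against CD41 of platelets and CD45 of leukocytes, and RNA was sequenced from 12 libraries in 4 groups of 3. The groups were wild type (WT), Hdac2 ECKO (Hdac2lox/lox with Cdh5CreERT2), Ezh2 ECKO (Ezh2lox/lox with Cdh5CreERT2) and beta-catenin GOF (Ctnnb1lox/lox with Cdh5CreERT2). Hdac2 encodes a histone deacetylase, Ezh2 the methyltransferase of the Polycomb repressor, and Ctnnb1 the Wnt effector beta-catenin, here in a gain of function. Cdh5CreERT2 is a Cre recombinase active in endothelium after tamoxifen, so the alleles were not aimed at mural cells. The mutants received 5 doses of tamoxifen at 75 mg/kg and brains were taken after 2 months. Whether WT mice carried the Cre or received tamoxifen is not given in the sources used here, nor is it said that replicates came from separate animals, so p-values measure the spread between libraries.

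Libraries held 24781070 to 36109975 counts. Levels are in CPM, counts per 1000000 of the library total after TMM scaling, and 6 counts, or 3 read pairs with both mates counted, are the limit that a count of 0 allows and correspond to 0.158 to 0.236 CPM. Pecam1, which encodes CD31, stood at 204 to 364 CPM, Itga2b, which encodes CD41, at 5.28 to 32.8 CPM, and Ptprc, which encodes CD45, at 0 to 1.52 CPM. Hdac2 stood at 162, 121 and 104 CPM in WT and at 82.2, 94.9 and 112 CPM in Hdac2 ECKO, ranges that overlapped (log2 fold change -0.42, SE 0.24, adjusted p = 0.225, edgeR). Hdac2 differed as much between beta-catenin GOF and WT (-0.43, SE 0.24, adjusted p = 0.884), so its lower level was not particular to Hdac2 ECKO. Ezh2 stood at 8.88, 2.69 and 8.68 CPM in WT and at 9.85, 5.19 and 11.7 CPM in the knockout, no lower than in WT (log2 fold change 0.40, SE 0.46, adjusted p = 0.615), so these are called the libraries labelled Ezh2 ECKO, or the Ezh2-labelled libraries. Ctnnb1 differed by -0.17 on the log2 scale between beta-catenin GOF and WT (SE 0.29, adjusted p = 0.962). A count over a whole gene does not show whether part of it was deleted.

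The promoters of 3 pericyte members are printed because of how these genes sit and vary. Kcnj8 and Abcc9 encode the pore and the sulphonylurea receptor of one potassium channel and lie next to each other on chromosome 6. Their levels varied differently between libraries, at low counts of 6 to 37 for Kcnj8 and 0 to 133 for Abcc9. The part of counting error in this was not tested. Rgs5 had the highest level of the 6 pericyte members. Of the 10 members, Acta2, Rgs5, Kcnj8, Abcc9, Cspg4 and Notch3 (6 genes) had an entry in the RefSeq promoter table (GRCm38.p6), which holds 300 bases per window, 250 before and 50 from the start site. The bases upstream of the gene model of Rgs5 (chr1:169655251-169655500, plus strand), Kcnj8 (chr6:142571615-142571864, minus strand) and Abcc9 (chr6:142702316-142702524, minus strand, with 41 bases inside the gene model left out) follow, 5′ to 3′, and capitals mark matches to the motifs searched.
Rgs5: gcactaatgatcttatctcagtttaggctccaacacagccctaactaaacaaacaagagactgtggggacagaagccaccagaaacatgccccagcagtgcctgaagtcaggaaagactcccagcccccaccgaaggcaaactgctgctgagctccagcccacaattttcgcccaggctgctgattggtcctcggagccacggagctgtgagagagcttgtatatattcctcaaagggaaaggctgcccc
Kcnj8: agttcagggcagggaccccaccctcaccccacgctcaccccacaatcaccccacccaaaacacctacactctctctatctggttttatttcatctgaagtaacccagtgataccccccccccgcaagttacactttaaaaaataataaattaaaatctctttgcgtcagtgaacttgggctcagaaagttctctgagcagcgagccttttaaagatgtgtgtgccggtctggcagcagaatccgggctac
Abcc9: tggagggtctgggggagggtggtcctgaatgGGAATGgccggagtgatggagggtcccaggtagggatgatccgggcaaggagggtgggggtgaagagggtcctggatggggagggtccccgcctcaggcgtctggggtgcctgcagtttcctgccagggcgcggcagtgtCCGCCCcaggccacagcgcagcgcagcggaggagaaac
The capitals in Abcc9 are GGAATG, an MCAT motif (CATTCC) on the other strand, and CCGCCC, a GC box (GGGCGG) on the other strand. These 2 matches in Abcc9 began at -219 and -79 from the start site, and Rgs5 and Kcnj8 held no match to any of the 5 motifs searched. Over both strands of all 32851 windows, the MCAT motif was in 14.7% and in 2 of the 6 members (Acta2 and Abcc9), and the GC box in 35.7% and in 3 of the 6 (Abcc9, Cspg4 and Notch3). The CArG box, the DNA element of serum response factor, was searched only as CC, then 6 bases of A or T, then GG. In that exact form it was in 1.63% of windows. The RBPJ motif GTGGGAA of Notch signalling was in 6.38% and TATAAA in 13.6%, and these 3 motifs were in 0 of the 6 members. Forms of the CArG box that depart from that pattern were not searched, so these promoters may still hold them. A match is a run of letters and was not tested as a binding site, and no matches overlapped in these 6 windows.

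The smooth muscle and pericyte members were on the whole higher in Hdac2 ECKO than in WT. Among the members with WT counts, the log2 difference ran from nearly none for Kcnj8, at 0.09, to 4.35 for Cspg4. Myocd, with no WT count, was at least 10.1-fold higher. In 7 of the 10 members every Hdac2 ECKO library stood above every WT library, beside 19.5% of all genes tested. Among all genes that share rose with gene length, from 4.69% in the shortest quintile to 43.8% in the longest. In beta-catenin GOF, 5 of the 10 stood so, beside 6.83%, among them Myocd with only 4, 2 and 2 counts. There 1 library, replicate 1, carried most of the smooth muscle signal. In the Ezh2-labelled libraries only Myocd, with 2 to 8 counts, stood above every WT library, beside 11.1%. The members' median log2 difference from WT was 2.82 in Hdac2 ECKO (0.10 over all genes tested), 0.40 in the Ezh2-labelled libraries (0.05) and 1.35 in beta-catenin GOF (0.01). Over the 9 members other than Myocd, which had no WT count, it was 2.52, 0.10 and 1.31. In these bulk libraries more cells of a type and more RNA per cell cannot be told apart, and the counts do not show which cells the RNA came from.

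**Figure D1:**
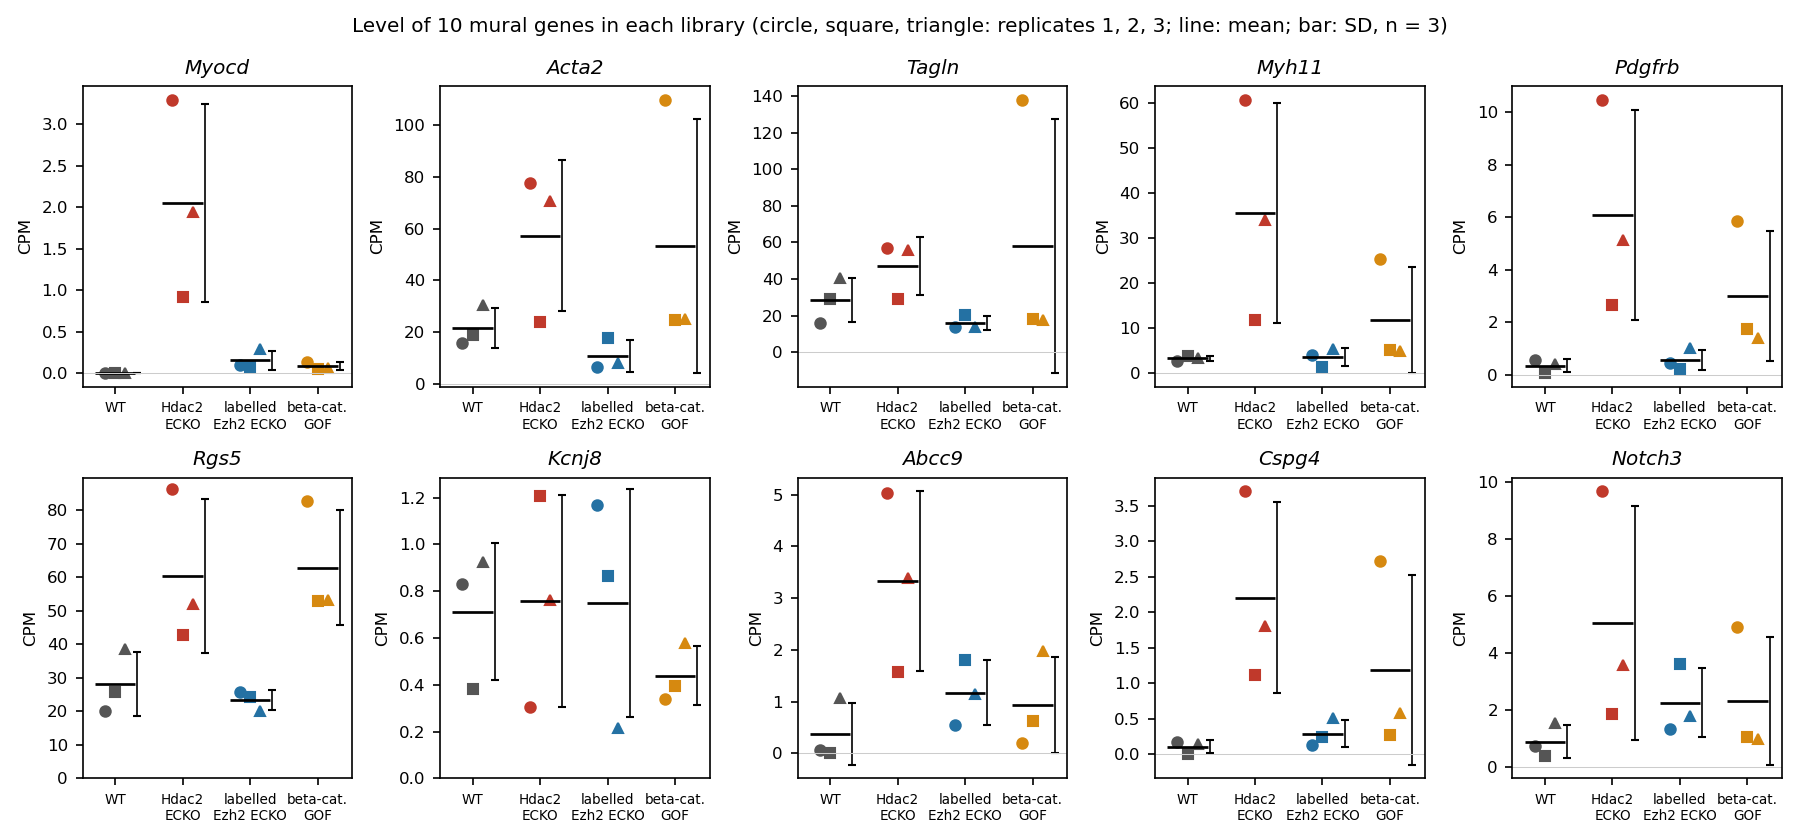
Level of each of the 10 genes in every library, in CPM (vertical axis, from 0 and on a scale of its own per gene), by group; symbols are replicates, lines the mean and bars the SD over 3 libraries. Myocd is at 0 in WT and between 0.913 and 3.29 CPM in Hdac2 ECKO, and the beta-catenin GOF circle (replicate 1) stands far above the other two for Acta2, Tagln and Myh11.

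Myocd (ENSMUSG00000020542.18, chromosome 11, 65176561 to 65269989, minus strand, GRCm38) encodes myocardin. Its counts were 0, 0 and 0 in WT and 87, 28 and 56 in Hdac2 ECKO. They were 3, 2 and 8 in the Ezh2-labelled libraries and 4, 2 and 2 in beta-catenin GOF. Myocd was thus found in every mutant library and in no WT library. In CPM, Hdac2 ECKO stood at 3.29, 0.913 and 1.94, at least 10.1-fold higher on average than the mean WT limit of 0.204 CPM that 6 counts per library set. The Ezh2-labelled libraries stood at 0.0972, 0.0787 and 0.287 CPM (adjusted p = 0.0873, edgeR) and beta-catenin GOF at 0.136, 0.0527 and 0.0581 CPM (adjusted p = 0.748). Both means lay under the WT limit, so no fold is given for these groups.

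Acta2 (ENSMUSG00000035783.9, chromosome 19, 34241090 to 34255590, minus strand) encodes smooth muscle alpha-actin, a main contractile protein. Its level was 15.7, 19.1 and 30.4 CPM in WT, against 77.6, 23.9 and 70.5 CPM in Hdac2 ECKO. It stood at 6.61, 17.9 and 8.26 CPM in the Ezh2-labelled libraries and at 110, 24.9 and 25 CPM in beta-catenin GOF. Hdac2 ECKO replicate 2 fell within the WT range, and so did 2 of the 3 beta-catenin GOF libraries. On the log2 scale the difference from WT was 1.40 (SE 0.58) in Hdac2 ECKO, -0.997 (SE 0.58, adjusted p = 0.295) in the Ezh2-labelled libraries and 1.29 (SE 0.58, adjusted p = 0.802) in beta-catenin GOF. Without beta-catenin GOF replicate 1 the last was 0.20.

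Tagln (ENSMUSG00000032085.5, chromosome 9, 45929619 to 45936058, minus strand) encodes transgelin, an actin-binding protein of smooth muscle also known as SM22-alpha. Its level was 16.2, 29.3 and 40.4 CPM in WT, against 56.7, 29.1 and 55.8 CPM in Hdac2 ECKO. It stood at 13.7, 20.3 and 13.6 CPM in the Ezh2-labelled libraries and at 138, 18.3 and 17.4 CPM in beta-catenin GOF. Every group overlapped with WT. Set against WT, the log2 difference was 0.72 (SE 0.62) in Hdac2 ECKO, -0.85 (SE 0.62, adjusted p = 0.41) in the Ezh2-labelled libraries and 1.02 (SE 0.62, adjusted p = 0.892) in beta-catenin GOF, where it turned to -0.68 without replicate 1. Tagln overlaps Pcsk7 on the opposite strand, and the use of strand in the counting is not given in the sources used here. Pcsk7 stood at 6.79 to 14.9 CPM.

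Myh11 (ENSMUSG00000018830.10, chromosome 16, 14194535 to 14291372, minus strand) encodes smooth muscle myosin heavy chain, the most selective of the contractile markers. Its level was 2.84, 3.96 and 3.35 CPM in WT, against 60.8, 11.9 and 34.0 CPM in Hdac2 ECKO. It stood at 4.02, 1.42 and 5.46 CPM in the Ezh2-labelled libraries and at 25.5, 5.22 and 4.88 CPM in beta-catenin GOF. Every Hdac2 ECKO library and every beta-catenin GOF library lay above all WT libraries, and the Ezh2-labelled libraries lay on both sides of them. Against WT, the log2 difference was 3.39 (SE 0.71) in Hdac2 ECKO, 0.10 (SE 0.66, adjusted p = 0.94) in the Ezh2-labelled libraries and 1.81 (SE 0.67, adjusted p = 0.732) in beta-catenin GOF. Without beta-catenin GOF replicate 1 the last was 0.58.

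Among the pericyte members, Pdgfrb (ENSMUSG00000024620.11, chromosome 18, 61045150 to 61085061, plus strand) encodes the receptor through which pericytes are recruited. Its counts were 16, 2 and 12 in WT, or 0.555, 0.0633 and 0.427 CPM. In Hdac2 ECKO it stood at 10.5, 2.67 and 5.13 CPM, in the Ezh2-labelled libraries at 0.454, 0.236 and 1.01 CPM, and in beta-catenin GOF at 5.86, 1.74 and 1.39 CPM. All Hdac2 ECKO and beta-catenin GOF libraries lay above all WT libraries, and only the Ezh2-labelled libraries overlapped with WT. On the log2 scale the difference from WT was 4.12 (SE 0.92) in Hdac2 ECKO, 0.70 (SE 0.86, adjusted p = 0.64) in the Ezh2-labelled libraries and 3.10 (SE 0.88, adjusted p = 0.538) in beta-catenin GOF. Without beta-catenin GOF replicate 1 the last was 2.16.

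Cspg4 (ENSMUSG00000032911.6, chromosome 9, 56865033 to 56899870, plus strand) encodes NG2, a surface proteoglycan of pericytes that oligodendrocyte precursors carry too. Its counts were 5, 0 and 4 in WT, against 98, 34 and 52 in Hdac2 ECKO, 4, 6 and 14 in the Ezh2-labelled libraries and 80, 10 and 20 in beta-catenin GOF. The WT mean was 0.105 ± 0.0925 CPM (SD, n = 3), and the Hdac2 ECKO mean 2.21 ± 1.35 CPM. Hdac2 ECKO and beta-catenin GOF lay wholly above WT. Set against WT, the log2 difference was 4.35 (SE 1.27) in Hdac2 ECKO, 1.44 (SE 1.20, adjusted p = 0.475) in the Ezh2-labelled libraries and 3.46 (SE 1.23, adjusted p = 0.715) in beta-catenin GOF. Without beta-catenin GOF replicate 1 the last was 1.97, and with WT counts this low these values depend on a few counts.

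Notch3 (ENSMUSG00000038146.8, chromosome 17, 32120820 to 32166852, minus strand) encodes the Notch receptor of mural cells and is expressed in smooth muscle as well as in pericytes. Its level was 0.728, 0.38 and 1.53 CPM in WT, against 9.69, 1.86 and 3.57 CPM in Hdac2 ECKO. It stood at 1.33, 3.62 and 1.80 CPM in the Ezh2-labelled libraries and at 4.91, 1.05 and 0.987 CPM in beta-catenin GOF. Only Hdac2 ECKO cleared the WT range. Against WT, the log2 difference was 2.52 (SE 0.84) in Hdac2 ECKO, 1.35 (SE 0.82, adjusted p = 0.315) in the Ezh2-labelled libraries and 1.39 (SE 0.82, adjusted p = 0.886) in beta-catenin GOF, where it was 0.22 without replicate 1. An antisense gene, Gm17276, overlaps it.

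Rgs5 (ENSMUSG00000026678.10, chromosome 1, 169655501 to 169695813, plus strand) encodes a regulator of G-protein signalling abundant in brain pericytes. Its level was 20.0, 25.8 and 38.7 CPM in WT, against 86.4, 42.7 and 52.0 CPM in Hdac2 ECKO. It stood at 25.9, 24.2 and 20.0 CPM in the Ezh2-labelled libraries and at 82.7, 52.8 and 53.1 CPM in beta-catenin GOF. The Hdac2 ECKO and beta-catenin GOF libraries stood above every WT library. On the log2 scale the difference from WT was 1.10 (SE 0.32) in Hdac2 ECKO, -0.27 (SE 0.32, adjusted p = 0.627) in the Ezh2-labelled libraries and 1.16 (SE 0.32, adjusted p = 0.538) in beta-catenin GOF. Without beta-catenin GOF replicate 1 the last was 0.91.

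Kcnj8 (ENSMUSG00000030247.9, chromosome 6, 142564837 to 142571614, minus strand) encodes Kir6.1, the pore of the ATP-sensitive potassium channel of pericytes. Its level was 0.832, 0.38 and 0.925 CPM in WT, against 0.303, 1.21 and 0.762 CPM in Hdac2 ECKO. It stood at 1.17, 0.865 and 0.215 CPM in the Ezh2-labelled libraries and at 0.341, 0.396 and 0.581 CPM in beta-catenin GOF. All 4 groups overlapped. Set against WT, the log2 difference was 0.09 (SE 0.95) in Hdac2 ECKO, 0.07 (SE 0.95, adjusted p = 0.97) in the Ezh2-labelled libraries and -0.69 (SE 0.96, adjusted p = 0.953) in beta-catenin GOF. With counts of 6 to 37 per library, a change of this gene of the size of those standard errors would not have been detectable.

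Abcc9 (ENSMUSG00000030249.15, chromosome 6, 142587862 to 142702315, minus strand) encodes SUR2, the regulatory partner of Kir6.1. Its counts were 2, 0 and 30 in WT, against 133, 48 and 98 in Hdac2 ECKO, 17, 46 and 32 in the Ezh2-labelled libraries and 6, 24 and 68 in beta-catenin GOF. Hdac2 ECKO alone lay wholly above WT, and WT itself spanned 0 to 1.07 CPM. Against WT, the log2 difference was 3.13 (SE 1.27) in Hdac2 ECKO, 1.62 (SE 1.22, adjusted p = 0.423) in the Ezh2-labelled libraries and 1.31 (SE 1.21, adjusted p = 0.931) in beta-catenin GOF. Without WT replicate 3, which held 30 of the WT counts, these differences were 6.46, 4.95 and 4.64. The antisense gene 5330439B14Rik overlaps Abcc9.

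Per kilobase of gene length, which allows levels of different genes to be compared, Tagln, Acta2 and Rgs5 had the highest WT levels, at 14.4 ± 6.11, 9.91 ± 3.49 and 6.20 ± 2.09 CPM per kb (SD, n = 3). Neighbours among these 3 did not differ beyond their spread. Myh11 followed at 0.445 ± 0.0733 CPM per kb, then Kcnj8 at 0.280 ± 0.115, within their joint spread, and the other 5 members were at or below 0.109 CPM per kb. In Hdac2 ECKO, Acta2 stood at 26.1 ± 13.3, Tagln at 23.7 ± 7.91, Rgs5 at 13.3 ± 5.07 and Myh11 at 4.68 ± 3.22 CPM per kb. Pdgfrb, at 1.11 ± 0.729 CPM per kb there, passed Kcnj8 at 0.297 ± 0.177 CPM per kb, but by only about its own SD. Myocd was at 0.319 ± 0.186 CPM per kb in Hdac2 ECKO, 0.0240 ± 0.0180 in the Ezh2-labelled libraries and 0.0128 ± 0.00729 in beta-catenin GOF.

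A gene passed where its p from edgeR, adjusted over all genes tested, was under 0.05. In Hdac2 ECKO against WT, the contrast on which the members were chosen, 5 of the 10 members (Myocd, Myh11, Pdgfrb, Rgs5 and Cspg4) passed as higher, beside 3.82% of all genes tested, and nothing is read from that count. It fell to 0 without WT replicate 1, without WT replicate 2, without Hdac2 ECKO replicate 1 or without Hdac2 ECKO replicate 3, and was 6 without WT replicate 3 and 7 without Hdac2 ECKO replicate 2. Over all genes the calls went from 1157 to at most 1 without any one of the first 4 libraries, to 1868 without WT replicate 3 and to 2220 without Hdac2 ECKO replicate 2. The comparisons of the Ezh2-labelled libraries and of beta-catenin GOF with WT use the same WT libraries as that contrast. In the Ezh2-labelled libraries against WT, 0 of 10 members passed as higher or lower in edgeR, beside 1.03% of all genes. DESeq2 called 0 members too, and only Myocd had an unadjusted p under 0.05 in edgeR, beside 24.7% of all genes. Leaving out labelled Ezh2 ECKO replicate 2 made Myocd pass (adjusted p = 0.0372), and leaving out WT replicate 3 made Abcc9 pass (adjusted p = 0.0465). The pass of Myocd rested on 3 and 8 counts, near the limit of 6, and Myocd met the filter through Hdac2 ECKO. Nothing is read from it. In beta-catenin GOF against WT, 0 of 10 members and 0 of 12577 genes passed in edgeR, which is 0% of genes. At an unadjusted p under 0.05 there were 762 genes, 6.06%, among them Myocd, Acta2, Myh11, Pdgfrb, Rgs5 and Cspg4, and DESeq2 called 38 genes and 0 members.

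**Figure D2:**
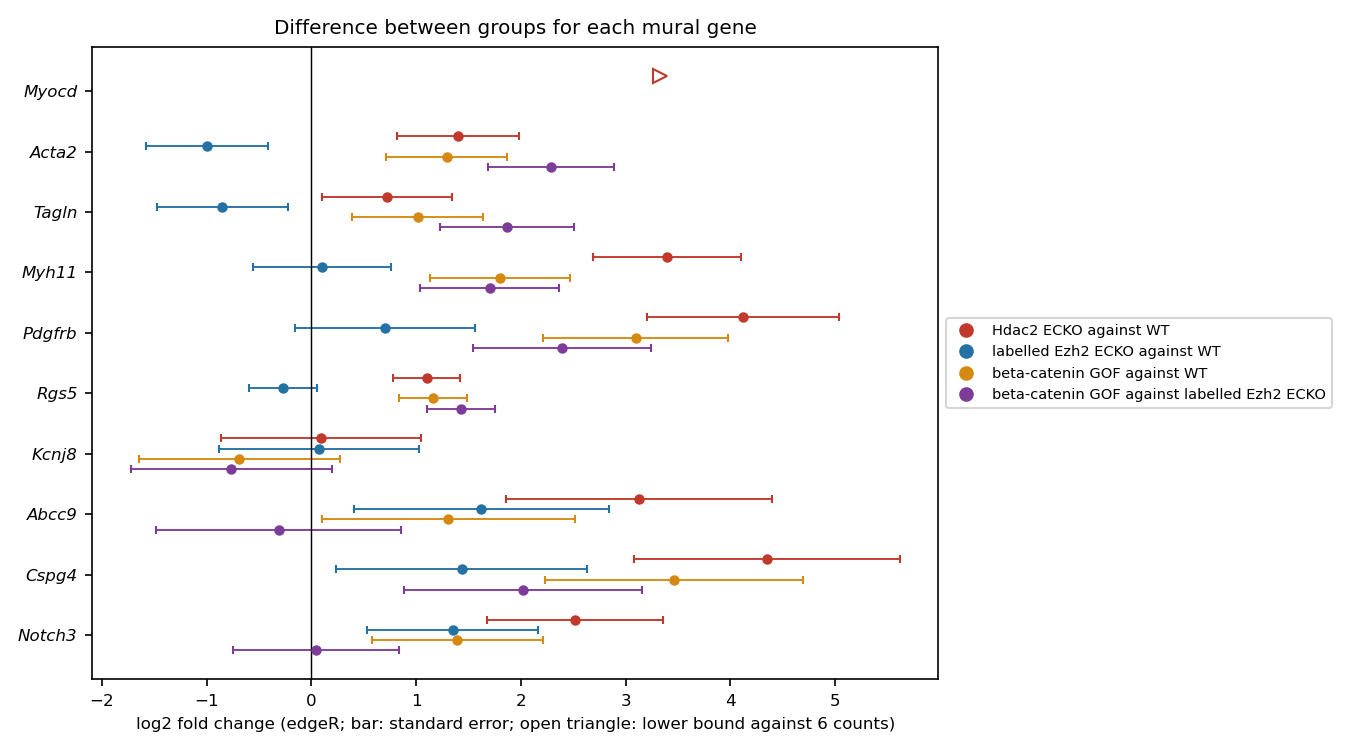
Log2 fold change of each gene (horizontal axis) in 4 comparisons, with bars for the standard error and an open triangle for the lower bound of Myocd in Hdac2 ECKO, its WT counts being 0; Myocd has no point for the other comparisons. The estimates of Hdac2 ECKO against WT or, for Myocd, the bound are above 0 for all 10 genes and near 0, at 0.09, for Kcnj8, and those of the Ezh2-labelled libraries against WT are -0.997 for Acta2 and -0.85 for Tagln.

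Beta-catenin GOF against the Ezh2-labelled libraries shares no library with the contrast on which the members were chosen. Acta2, Pdgfrb and Rgs5 (3 of the 10) lay wholly higher in beta-catenin GOF, beside 7.97% of all genes. The log2 difference was 2.29 for Acta2 (SE 0.60, adjusted p = 0.215), 2.39 for Pdgfrb (SE 0.85, adjusted p = 0.306) and 1.43 for Rgs5 (SE 0.33, adjusted p = 0.162). Tagln, at 1.87 (SE 0.64, adjusted p = 0.299), Myh11, at 1.70 (SE 0.67, adjusted p = 0.329), and Cspg4, at 2.02 (SE 1.14, adjusted p = 0.446), had overlapping groups. Notch3 differed by 0.04 (SE 0.79), Abcc9 by -0.31 (SE 1.17) and Kcnj8 by -0.77 (SE 0.96), with adjusted p from 0.739 to 0.987, and Myocd, under the limit of detection on average in both groups, had an adjusted p of 0.739. Thus 0 of 10 members passed in edgeR, beside 0.0636% of all genes (8 genes), and 5 (Acta2, Tagln, Myh11, Pdgfrb and Rgs5) had an unadjusted p under 0.05, beside 13.2%. DESeq2 called Acta2 (adjusted p = 0.00795) and Rgs5 (adjusted p = 0.00573), and both also passed in edgeR without labelled Ezh2 ECKO replicate 2, with adjusted p of 0.0371 and 0.040. The members' median was 1.57 against -0.02 over all genes, and 0.32 without beta-catenin GOF replicate 1.

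Whether the pericyte and smooth muscle genes moved together was read from the correlation of log2 CPM over the 12 libraries, as a description, since these libraries share group, depth and the choice of the genes. Of the 45 pairs of members, 37 had a Pearson r above 0, and 35 had r above 0 after each group's mean was taken out. The 8 pairs at or below 0 all involved Kcnj8. This gene had only 6 to 37 counts per library, and the part of counting error in its low correlations was not tested. Among the other 9 genes all 36 pairs were above 0, from 0.08 to 0.96 with a median of 0.71, and within groups 34 of the 36 were above 0, with a median of 0.58. The 9 pairs with Kcnj8 had a median of -0.24. Pairs across the classes had a median of 0.65 (24 pairs), between that of smooth muscle pairs at 0.74 (6 pairs) and that of pericyte pairs at 0.59 (15 pairs).

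The closest pair was Pdgfrb and Cspg4, a receptor and a proteoglycan on the surface of pericytes (r = 0.96 over 12 libraries, 0.88 within groups). The contractile genes Acta2 and Tagln followed each other closely (r = 0.91, and 0.91 within groups). Across classes, Myh11 and Pdgfrb reached 0.89 (0.73 within groups) and Acta2 and Rgs5 reached 0.86. Myocd and Myh11, regulator and target, had r = 0.83. The channel partners Kcnj8 and Abcc9, whose promoters are printed above, had r = 0.09 (0.12 within groups), at low counts of both genes.

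**Figure D3:**
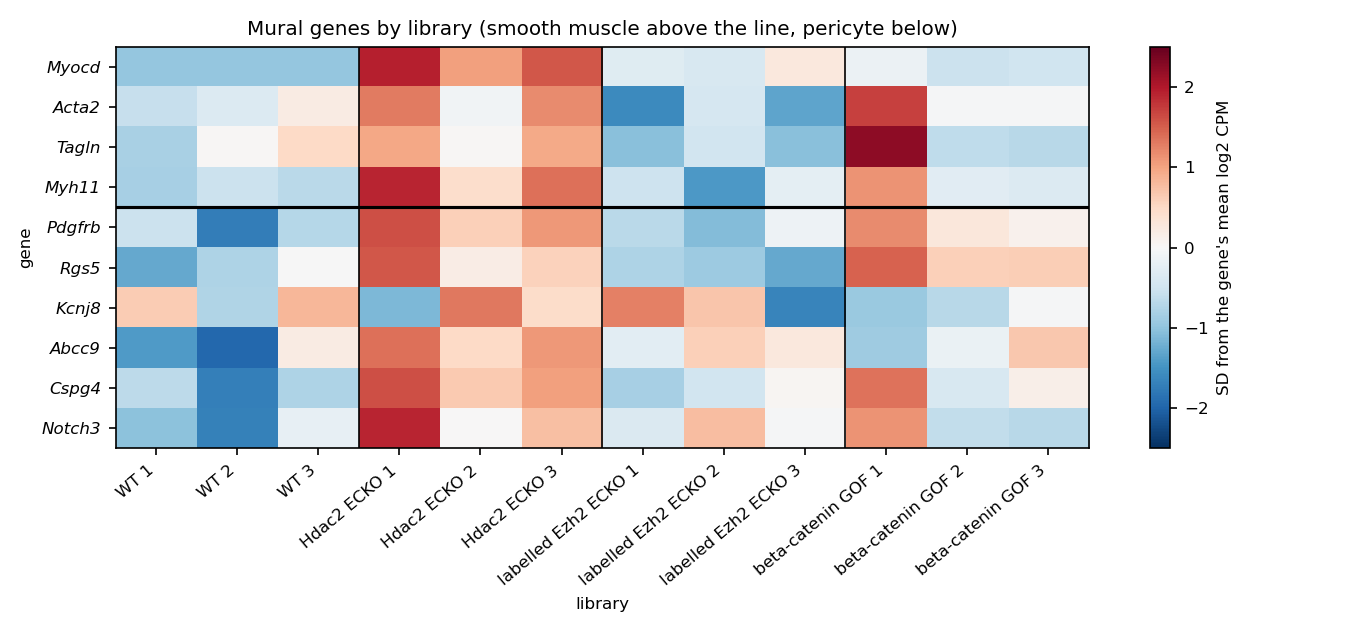
Each gene's log2 CPM in each library, in SD from that gene's mean over 12 libraries (colour scale); rows above the line are smooth muscle genes, rows below it pericyte genes, and columns are libraries by group. Hdac2 ECKO replicate 1 is high for most genes of both classes, beta-catenin GOF replicate 1 is below the mean for Myocd, Abcc9 and Kcnj8, and the Kcnj8 row departs from the rest.

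By library, the mean log2 CPM of the 10 members was highest in Hdac2 ECKO replicate 1 (3.57), then in Hdac2 ECKO replicate 3 (3.04) and beta-catenin GOF replicate 1 (2.58). The summed level of the 4 smooth muscle members ran from 34.8 to 74.2 CPM in WT, against 65.8 to 198 CPM in Hdac2 ECKO, 24.4 to 39.7 CPM in the Ezh2-labelled libraries and 47.3 to 273 CPM in beta-catenin GOF. The 273 CPM were those of beta-catenin GOF replicate 1, and the other two libraries of its group lay inside the WT range. The summed level of the 6 pericyte members, mostly Rgs5, ran from 22.4 to 42.7 CPM in WT, against 51.1 to 116 CPM in Hdac2 ECKO, 24.6 to 30.9 CPM in the Ezh2-labelled libraries and 56.9 to 96.8 CPM in beta-catenin GOF. For the pericyte sum, unlike the smooth muscle sum, all 3 beta-catenin GOF libraries lay above WT; the difference between the classes was not tested.

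The make-up of the mural signal within a library was compared through ratios of counts, which need no scaling between libraries and were chosen after the values were seen. In Hdac2 ECKO there were 31.4, 34.1 and 37.8 Myocd counts per 100 Pdgfrb counts. In the Ezh2-labelled libraries there were 21.4, 33.3 and 28.6, from 2 to 8 Myocd counts each. In beta-catenin GOF there were 2.33, 3.03 and 4.17. With 2 counts taken as 1 read pair, the exact binomial 95% intervals, which cover counting error only, were 22.0 to 44.7 in Hdac2 ECKO replicate 1 and 0.277 to 8.66 in beta-catenin GOF replicate 1. Over all libraries of these groups the intervals overlapped, since the lowest bound in Hdac2 ECKO was 17.2 and the highest in beta-catenin GOF 25.6. They also overlapped between beta-catenin GOF and the Ezh2-labelled libraries, whose replicate 1 had 2.90 to 150.

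**Figure D4:**
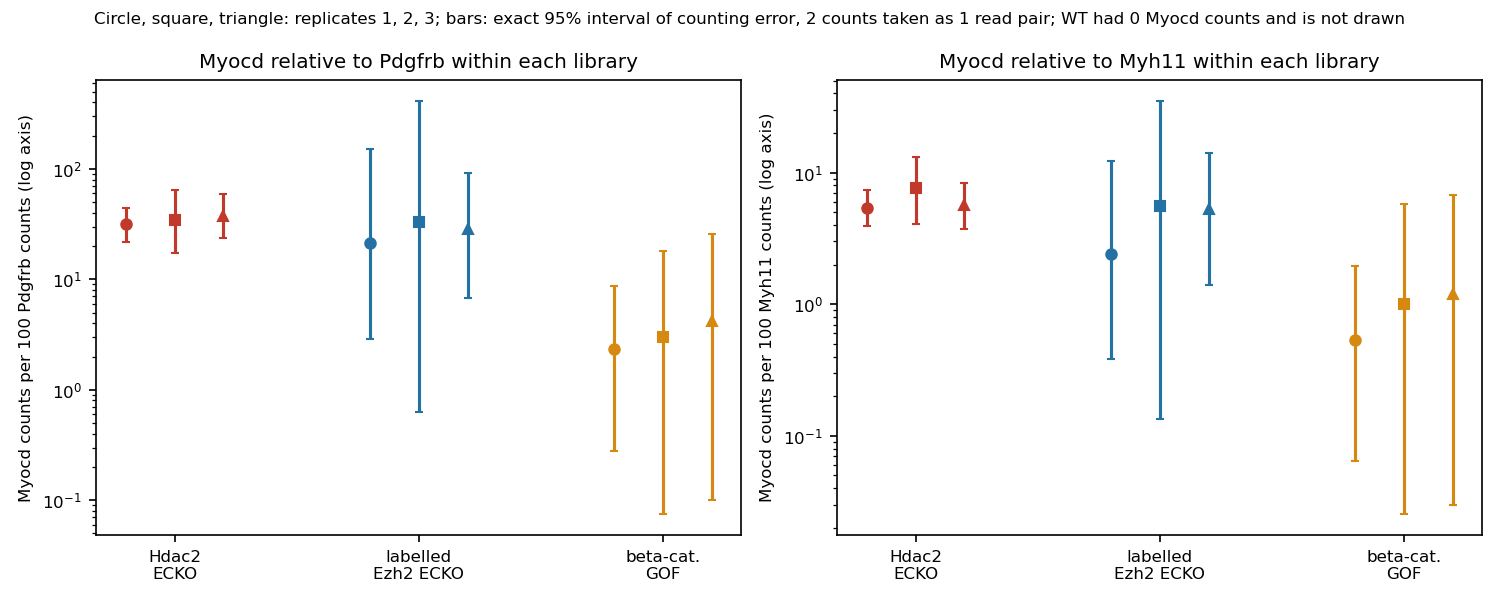
Myocd counts per 100 Pdgfrb counts (left) and per 100 Myh11 counts (right) in each mutant library, on log axes, with exact 95% intervals of counting error that take 2 counts as 1 read pair. In both panels the 3 beta-catenin GOF points lie lowest, at 2.33 to 4.17 per 100 Pdgfrb counts and 0.535 to 1.19 per 100 Myh11 counts, with intervals that overlap those of the other groups in part.

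There were 5.41, 7.65 and 5.71 Myocd counts per 100 Myh11 counts in Hdac2 ECKO, 2.42, 5.56 and 5.26 in the Ezh2-labelled libraries and 0.535, 1.01 and 1.19 in beta-catenin GOF. These intervals overlapped as well, with the lowest bound in Hdac2 ECKO at 3.75 and the highest in beta-catenin GOF at 6.82. Acta2 had 554, 483 and 909 counts per 100 Myh11 counts in WT, against 128, 200 and 207 in Hdac2 ECKO and 431, 478 and 512 in beta-catenin GOF, while the Ezh2-labelled libraries were scattered at 165, 1261 and 151. Hdac2 ECKO thus lay wholly below WT and beta-catenin GOF in Acta2 per Myh11. This ratio sets a gene of 2196 bases against one of 7599 bases. Ratios of counts do not remove the trend with gene length given below, and its part in this difference was not tested. Among pericyte genes, Cspg4 had 35.4, 41.5 and 35.1 counts per 100 Pdgfrb counts in Hdac2 ECKO and 46.5, 15.2 and 41.7 in beta-catenin GOF. Notch3 had 92.4, 69.5 and 69.6 in Hdac2 ECKO and 83.7, 60.6 and 70.8 in beta-catenin GOF, ranges that overlapped. Abcc9 had 48.0, 58.5 and 66.2 in Hdac2 ECKO and varied from 3.49 to 142 in beta-catenin GOF.

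Other markers of the same cells were read from 2 lists, and the difference between the lists was not tested. Of 22 other pericyte markers 19 were tested, and 4 rose in Hdac2 ECKO against WT and 0 fell, beside 3.82% and 5.38% of all genes, with a median of 1.90 (0.10 over all genes). Slc38a11, an amino acid transporter gene, went from 1.28 ± 0.654 to 19.0 ± 18.6 CPM (SD, n = 3), a log2 change of 3.89 (SE 0.72, adjusted p = 0.0323, edgeR). Higd1b, a mitochondrial gene, went from 4.75 ± 2.21 to 23.6 ± 9.17 CPM, a log2 change of 2.31 (SE 0.57, adjusted p = 0.0346). S1pr3, a sphingosine-1-phosphate receptor gene, had counts of 0, 2 and 2 in WT against 86, 14 and 36 in Hdac2 ECKO (adjusted p = 0.0456). All 4 had Hdac2 ECKO wholly above WT. The 4 calls became 0 without WT replicate 1, WT replicate 2, Hdac2 ECKO replicate 1 or Hdac2 ECKO replicate 3, and the median was then 1.29 to 1.61.

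Of 20 other smooth muscle markers 18 were tested, and 0 rose and 1 fell in Hdac2 ECKO against WT in edgeR, beside the same 3.82% and 5.38%, with 7 at an unadjusted p under 0.05 (33.1% of all genes) and 3 called by DESeq2. The median was 0.78, and 17 of the 18 were above 0, as were 54% of all genes. The 1 that fell was Tpm1, a tropomyosin gene also expressed in cells that are not muscle, from 451 ± 51.0 to 163 ± 44.4 CPM (log2 change -1.47, SE 0.31, adjusted p = 0.0323), a call lost when any one of the same 4 libraries was left out. Cnn1, calponin, a late contractile marker, was below the filter with counts of 0, 0 and 0 in WT against 6, 18 and 10 in Hdac2 ECKO. In the Ezh2-labelled libraries against WT, the smooth muscle list had a median of -0.64, with 5 of 18 above 0 (52.6% of all genes). There 0 passed in edgeR, beside 0.342% of all genes as higher and 0.684% as lower. At an unadjusted p under 0.05 there were 4, beside 24.7% of all genes, and DESeq2 called 2. The pericyte list had a median of 0.52 in that comparison, with 0 higher and 1 lower, beside the same 0.342% and 0.684%. The 1 was Art3, a mono-ADP-ribosyltransferase gene, which fell from 9.96 ± 6.86 to 1.65 ± 0.623 CPM (log2 change -2.59, SE 0.52, adjusted p = 0.0449). That call was lost when WT replicate 1 or 2 or labelled Ezh2 ECKO replicate 1 or 3 was left out, and Art3 overlaps Cxcl10 on the opposite strand. In beta-catenin GOF against WT, 0 genes of either list passed in edgeR (7 pericyte and 3 smooth muscle markers at an unadjusted p under 0.05, beside 6.06% of all genes, and 1 and 0 in DESeq2), with medians of 0.82 for pericyte and 0.71 for smooth muscle markers, and without replicate 1 these were 0.65 and -0.20.

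A list of 15 cofactors of myocardin and other regulators of smooth muscle was tested, and 0 passed in any of the 4 comparisons in edgeR. Over all genes 9.2%, 1.03% and 0% passed in Hdac2 ECKO, the Ezh2-labelled libraries and beta-catenin GOF against WT. Between beta-catenin GOF and the Ezh2-labelled libraries 0.0636% of all genes passed. In Hdac2 ECKO against WT 5 had an unadjusted p under 0.05, beside 33.1% of all genes, and DESeq2 called 3. In the Ezh2-labelled libraries against WT these numbers were 5, beside 24.7%, and 1. In the comparisons of beta-catenin GOF with WT and with the Ezh2-labelled libraries they were 2 and 0 each, beside 6.06% and 13.2% of all genes at such a p. The median of the 15 was 0.50 in Hdac2 ECKO against WT and between -0.33 and 0.03 in the other 3 comparisons. Klf4, a factor that represses contractile genes in smooth muscle and is itself an endothelial gene, had the highest level, with 454 ± 17.3 CPM in WT, against 818 ± 332 in Hdac2 ECKO, 897 ± 166 in the Ezh2-labelled libraries and 462 ± 190 in beta-catenin GOF (adjusted p against WT 0.0991, 0.104 and 0.998). Foxc1, a forkhead factor of brain mural cells, had 118 ± 39.5 CPM in WT against 227 ± 61.2 CPM in Hdac2 ECKO (adjusted p = 0.0619).

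Of the 12 ligand genes through which endothelium signals to mural cells, 11 were tested and 0 passed in any of the 4 comparisons in edgeR. The shares of all genes that passed were those given above for the regulators. Against WT, 4 had an unadjusted p under 0.05 in Hdac2 ECKO (33.1% of all genes), 3 in the Ezh2-labelled libraries (24.7%) and 3 in beta-catenin GOF (6.06%), and DESeq2 called 1, 1 and 0. Between beta-catenin GOF and the Ezh2-labelled libraries 1 had such a p (13.2% of all genes) and DESeq2 called 0. Edn1, the gene of the vasoconstrictor endothelin, had 218 ± 24.5 CPM in WT against 156 ± 23.8 CPM in Hdac2 ECKO (adjusted p = 0.187). Pdgfd, a ligand of the PDGF receptor, had 181 ± 14.6 and 134 ± 8.24 CPM (adjusted p = 0.266). Pdgfb, the ligand of the receptor encoded by Pdgfrb, named after its values were seen, had 103 ± 15.4 CPM in WT, against 152 ± 24.7 in Hdac2 ECKO, 97.4 ± 17.6 in the Ezh2-labelled libraries and 110 ± 16.9 in beta-catenin GOF. Its Hdac2 ECKO libraries lay wholly above WT (log2 difference 0.56, SE 0.24, adjusted p = 0.116).

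Outside these lists, the genes most like the members over the 12 libraries were named by Pearson r of log2 CPM with the members' mean standardised level. Most like the 6 pericyte members were Pde5a (r = 0.93), Frem2 (0.91), Cox7a1 (0.88), Limd1 (0.87) and Dock10 (0.87). Pde5a, a cyclic GMP phosphodiesterase gene, stood at 8.31 ± 5.19 CPM in WT, against 33.6 ± 2.51 in Hdac2 ECKO, 9.88 ± 3.18 in the Ezh2-labelled libraries and 15.4 ± 4.54 in beta-catenin GOF. Most like the 4 smooth muscle members were Rarres2 (r = 0.95), Lrrc61 (0.93), Susd5 (0.93), Rgs7bp (0.92) and Fxyd1 (0.91). Rarres2, which encodes the secreted protein chemerin, stood at 3.59 ± 1.43 CPM in WT, against 12.1 ± 5.52 in Hdac2 ECKO, 2.62 ± 0.669 in the Ezh2-labelled libraries and 8.63 ± 6.14 in beta-catenin GOF.

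Markers of other cell types differed between the groups as well, given here as summed levels. The summed level of 14 endothelial genes was 18849 to 24244 CPM in WT against 15257 to 17640 CPM in Hdac2 ECKO, ranges that did not overlap. The lower sum was that of abundant genes such as Ly6c1 (log2 difference -0.67) and Cldn5 (-1.10), named after their values were seen. Of the 14 genes 10 were above 0, beside 54% of all genes, with a median of 0.37. Wholly above WT lay 5 and wholly below it 3, beside 19.5% and 18.2% of all genes. In the Ezh2-labelled libraries it was 18606 to 23754 CPM and in beta-catenin GOF 21097 to 24646 CPM. Of 9 blood genes, the sum was 36131 to 61389 CPM in WT against 406 to 21713 CPM in Hdac2 ECKO. It was 2530 to 6711 CPM in the Ezh2-labelled libraries and 528 to 35392 CPM in beta-catenin GOF. Of 12 fibroblast genes, 6 were tested and 0 passed in Hdac2 ECKO against WT in edgeR, beside 9.2% of all genes. DESeq2 called 0 of these fibroblast genes, and 1 had an unadjusted p under 0.05, beside 33.1% of all genes. Their summed levels overlapped, at 290 to 374 CPM in WT against 147 to 334 CPM in Hdac2 ECKO, with Lum and Gjb2 at 0 in every WT library. The 8 astrocyte genes summed to 24.3 to 36.2 CPM in WT against 50.8 to 76.4 CPM in Hdac2 ECKO. Of these 8 genes 4 were tested and 3 were above 0, beside 54% of all genes. Among them was Gja1 (log2 difference 0.95), while Gfap was at -2.25 (SE 1.66). The 8 neuron genes summed lower in Hdac2 ECKO, at 160 to 301 and 63.3 to 112 CPM, a sum made up almost wholly by Stmn2 (log2 difference -1.23), while Gad1, the other neuron gene tested, was at 1.18. The 10 microglia and macrophage genes summed to 70.6 to 97.6 CPM in WT against 39.3 to 62.1 CPM in Hdac2 ECKO. Of the 5 tested, 1 was above 0 (Csf1r, log2 difference 0.06), beside 54% of all genes. Tmem119 was at 0 in every Hdac2 ECKO library and in every beta-catenin GOF library. The 9 oligodendrocyte lineage genes, of interest because of Cspg4, summed to 2.60 to 69.6 CPM in WT against 9.15 to 26.1 CPM in Hdac2 ECKO. The precursor factors Olig1 and Olig2 were at 0 in every Hdac2 ECKO library, as in every library of the other mutant groups. The part of these cell types in the mural results was not tested.

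Gene length moved with the comparison of Hdac2 ECKO with WT, and with others. Over quintiles of gene length from short to long, the median log2 difference of Hdac2 ECKO against WT went from -0.52 through -0.33, 0.09 and 0.32 to 0.66. The shortest members, Tagln (1988 bases), Acta2 (2196) and Kcnj8 (2548), were those whose groups overlapped, and the 7 that did not overlap were 4546 bases (Rgs5) to 11931 bases (Cspg4) long. Over the same quintiles 4.69%, 7.59%, 16%, 25.5% and 43.8% of all genes lay wholly higher in Hdac2 ECKO. Rgs5 was in quintile 3, Myocd, Myh11 and Pdgfrb in quintile 4, and Abcc9, Cspg4 and Notch3 in quintile 5. With the length trend taken out the members' median was 2.38, and Myocd, Myh11 and Pdgfrb (3 members) passed. Acta2 was then at 2.04, Tagln at 1.36, Kcnj8 at 0.54, Pdgfrb at 3.93 and Cspg4 at 3.64, so the members differed less between short and long genes and kept their sign. In the Ezh2-labelled libraries against WT the medians by quintile were -0.21, -0.27, -0.02, 0.17 and 0.43. In beta-catenin GOF against WT they were -0.01, -0.11, -0.02, 0.04 and 0.13. Between beta-catenin GOF and the Ezh2-labelled libraries they ran the other way, at 0.19, 0.16, 0.01, -0.12 and -0.26. The part of length in the order of the members, or in differences between the classes, was not tested further in any comparison.

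**Figure D5:**
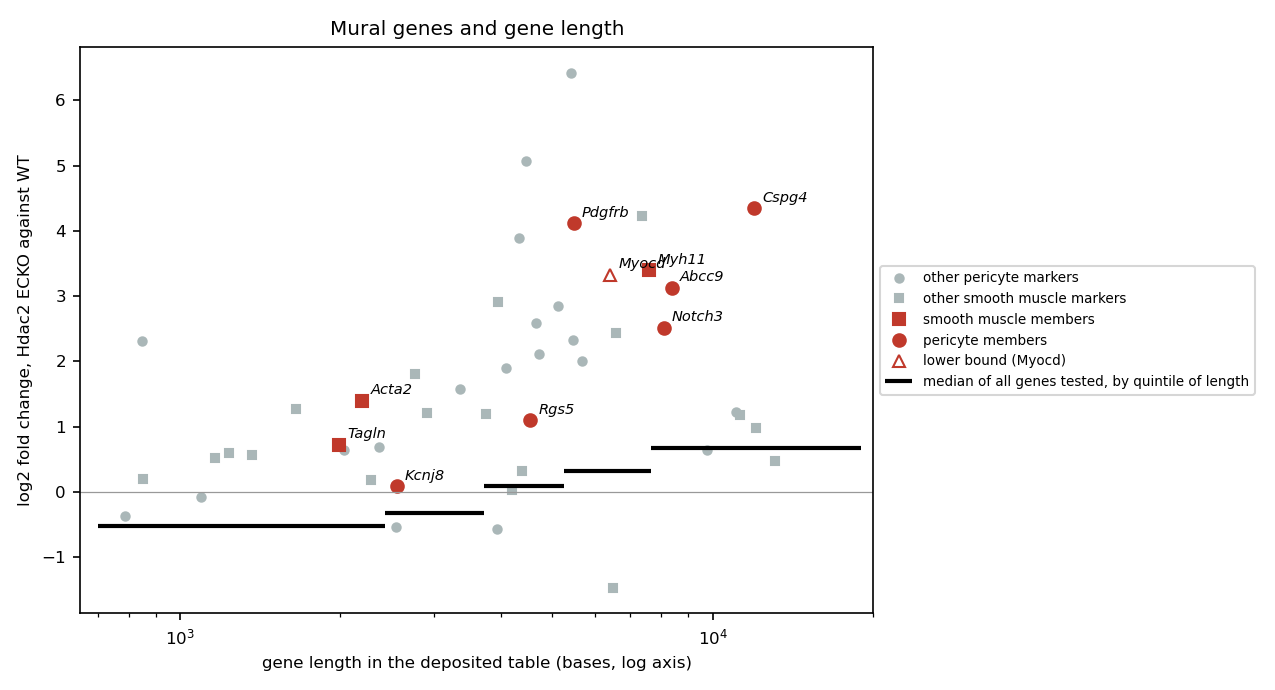
Log2 fold change of Hdac2 ECKO against WT (vertical axis) against gene length in bases (log axis) for the 10 members (red), the other pericyte and smooth muscle markers tested (grey), and the median of all genes by quintile of length (black bars, drawn to the edge of the axis). The black bars climb from -0.52 to 0.66, and all 10 members lie above the bar of their own length, Kcnj8 by the least (0.09 against -0.33).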

How the data were processed

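The deposited table has a single value for each gene in each library. Its name calls the values normalized, but the deposited values are whole-number counts: library totals differ, and 79.5% to 84.0% of the values from 10 to 50 are even, as when both mates of a read pair are counted. They were treated as raw counts. The submitters' processing notes name FastQC, cutadapt, STAR, featureCounts, DESeq2 and the build mm10, without versions or order. Gene positions (counted from 1) and names matched GENCODE M21 for 99.1% of genes.

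The 12577 genes with 10 or more counts on average over 12 libraries were tested in edgeR 4.0.16 (R 4.3.3) by the quasi-likelihood F test, with TMM scaling and 1 model over the 4 groups, with Benjamini-Hochberg adjustment per comparison and a threshold of 0.05. Standard errors were derived from the F statistic. Log2 CPM for correlations used a prior count of 2. Intervals and detection limits take 2 counts as 1 read pair and, with no molecular identifiers, cover counting error only. Replicates differed by far more than sampling noise (chi-square per degree of freedom at least 66.3). On simulated counts with 200 changed genes, 4-fold changes were recovered in 61%, 62%, 64% and 55% and 2-fold changes in 8%, 11%, 7% and 4% for Hdac2 ECKO, Ezh2 ECKO and beta-catenin GOF against WT and beta-catenin GOF against Ezh2 ECKO, on 12419, 12430, 12412 and 12413 genes.

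The members and the marker lists were chosen with earlier results of these data known. Named were all members; of each other list up to 4 genes of smallest p past the threshold in a comparison, otherwise the 2 of highest mean level; the 5 genes outside the lists most like each member class; and the targeted and sorting genes. The values of 2 genes that the rule names are not reported here. For lists that give only other cell types, summed levels are printed. Alternatives were dropping the filter, raising it to 50, median-ratio factors, library size alone, DESeq2 1.42.0, a replicate block, a length trend taken out, only the groups compared, and leaving out each library.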

Additional observations from a re-analysis of the deposited data

How the results depend on the processing

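The comparisons are given in the order Hdac2 ECKO, labelled Ezh2 ECKO and beta-catenin GOF against WT, then beta-catenin GOF against labelled Ezh2 ECKO, where edgeR called 1157, 129, 0 and 8 genes. Without the filter it called 2279, 1367, 157 and 359 genes and 8, 1, 4 and 4 members. A mean count of at least 50, which 6 members passed, gave 219 genes in the Ezh2 comparison, and 3 members with a median of 1.94 in the Hdac2 comparison. DESeq2 called 2477, 1271, 38 and 144 genes, and 2 members in the last comparison. Library size alone gave 1819, 30 and 14 genes in the Hdac2, Ezh2 and last comparisons; the higher share of calls in Hdac2 ECKO went from 41.5% to 80.4% and the median of all genes from 0.10 to 0.34. In the Ezh2 comparison that share went from 33.3% to 56.7%, and to 48.3% in DESeq2. Median-ratio factors gave 76 and a fit of only the compared groups 17 genes in the Ezh2 comparison. With the length trend taken out, 596 genes and 3 members were called in the Hdac2 comparison and 14 genes in the last, and Myh11 in the Ezh2 comparison was -0.19. The replicate numbers do not pair the libraries (same-number correlations of -0.14 to 0.06), and a replicate block gave 1832, 536, 0 and 13 genes, Myh11 at -0.17 in the Ezh2 comparison and Notch3 at -0.45 in the last.

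Leaving out single libraries gave 0 to 2220, 2 to 2328, 0 to 4 and 1 to 731 genes, 0 to 7, 0 to 1, 0 to 0 and 0 to 2 members, and member medians of 1.61 to 3.28, 0.22 to 0.67, 0.74 to 1.93 and 0.32 to 1.81. Signs turned for Kcnj8 in Hdac2 ECKO (-0.46 to 0.46, below 0 without WT replicate 2, at -0.21, or Hdac2 ECKO replicate 2). In the Ezh2 comparison they turned for Kcnj8 (-0.42 to 0.50), Myh11 (-0.32 to 0.48), Rgs5 (-0.47 to 0.025) and Pdgfrb (-0.0026 to 1.21). In beta-catenin GOF against WT, Tagln ran from -0.68 to 1.45 and the other smooth muscle markers' median from -0.20 to 1.17, below 0 without replicate 1. In the last comparison Notch3 ran from -1.13 to 0.56 and Abcc9 from -1.46 to 0.16. The causes were not tested. In Hdac2 ECKO every member kept its sign under each setting that used all libraries. Depth limits Myocd, Cspg4, Kcnj8 and Abcc9, whose counts were low in most libraries.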
